A study of Homo sapiens with 12 samples.

Results

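The genes described here are 7 of the 57500 genes counted in this series, chosen by symbol: the plasminogen activators PLAU and PLAT, the receptor PLAUR, and the serpins SERPINE2, SERPINB2, SERPINF1 and SERPINH1. RNA was sequenced from MRC5 cells, a line of human embryonic lung fibroblasts, in 12 libraries that form 4 groups of 3. Prol cells were proliferating. Sen(IR) cells were made senescent with 20 Gy of X-rays and collected 10 to 12 days later. Sen(IR)+UK5099 cells were irradiated in the same way and kept in 100 μM UK5099, an inhibitor of the mitochondrial pyruvate carrier. Sen(IR)+CTPI2 cells were irradiated and kept in CTPI2, an inhibitor of the mitochondrial citrate carrier SLC25A1, for which the methods list 15 and 30 μM without saying which dose was sequenced. Both inhibitors were added the day after irradiation. All groups come from a single cell line. The study describes its sequenced replicates as independent experiments or conditions, whereas the labels do not say how the 3 libraries of a group were separated. The p-values measure the spread between these libraries.

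Plasmin is the protease that dissolves fibrin and also cuts matrix proteins and activates latent growth factors and some metalloproteinases. It is made from plasminogen by 2 serine proteases, the urokinase type (PLAU, uPA), which is bound and focused at the cell surface by its receptor PLAUR, and the tissue type (PLAT, tPA). Serpins are suicide inhibitors that trap a protease in a covalent complex: SERPINB2 (PAI-2) and SERPINE2 (protease nexin-1) are among those that act on the plasminogen activators. Some family members do not inhibit proteases, among them SERPINF1 (PEDF), a secreted anti-angiogenic factor, and SERPINH1 (HSP47), a collagen chaperone of the endoplasmic reticulum. Senescent fibroblasts are known to secrete several of these proteins along with cytokines and other proteases.

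Promoter sequence from RefSeq (GRCh38.p14) was examined for 5 of the 7 genes, 8 promoters in all, each of 300 bases, from position −250 to position 50 around an annotated start site. Shown here are those of PLAU, PLAUR and SERPINB2, the 3 genes that fell furthest with UK5099, and, for contrast, those of SERPINE2, which moved least, and SERPINH1. Letters in capitals are matches, on either strand, to the 7 motifs spelled out after the sequences, none of which overlap another match. PLAU, SERPINE2 and SERPINH1 each have 2 annotated promoters, of which 1 is printed.
PLAU promoter (chr10:73910882-73911181, plus strand): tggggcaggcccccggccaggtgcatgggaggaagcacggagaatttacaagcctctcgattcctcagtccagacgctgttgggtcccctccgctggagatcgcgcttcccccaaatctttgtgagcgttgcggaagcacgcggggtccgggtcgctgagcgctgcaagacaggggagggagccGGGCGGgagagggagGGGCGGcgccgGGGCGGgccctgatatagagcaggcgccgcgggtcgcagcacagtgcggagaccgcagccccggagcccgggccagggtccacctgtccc
PLAUR promoter (chr19:43670120-43670419, minus strand): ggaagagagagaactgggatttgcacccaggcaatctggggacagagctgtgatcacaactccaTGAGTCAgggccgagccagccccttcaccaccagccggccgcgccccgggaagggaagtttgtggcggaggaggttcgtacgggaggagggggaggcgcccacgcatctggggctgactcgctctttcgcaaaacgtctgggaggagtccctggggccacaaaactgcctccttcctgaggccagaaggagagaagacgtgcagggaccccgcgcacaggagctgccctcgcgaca
SERPINB2 promoter (chr18:63887455-63887754, plus strand): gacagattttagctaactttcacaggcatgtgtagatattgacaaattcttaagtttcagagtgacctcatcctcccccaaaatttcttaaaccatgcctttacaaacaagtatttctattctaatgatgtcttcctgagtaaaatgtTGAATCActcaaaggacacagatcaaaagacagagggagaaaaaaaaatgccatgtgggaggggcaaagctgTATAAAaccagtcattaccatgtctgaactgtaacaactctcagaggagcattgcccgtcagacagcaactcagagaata
SERPINE2 promoter (chr2:224031429-224031728, minus strand): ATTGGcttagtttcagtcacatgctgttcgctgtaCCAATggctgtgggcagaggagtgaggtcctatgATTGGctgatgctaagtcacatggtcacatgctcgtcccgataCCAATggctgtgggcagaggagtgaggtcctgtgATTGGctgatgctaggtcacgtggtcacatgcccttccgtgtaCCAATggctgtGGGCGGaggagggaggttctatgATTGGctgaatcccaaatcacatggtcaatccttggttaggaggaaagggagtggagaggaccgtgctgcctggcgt
SERPINH1 promoter (chr11:75562003-75562302, plus strand): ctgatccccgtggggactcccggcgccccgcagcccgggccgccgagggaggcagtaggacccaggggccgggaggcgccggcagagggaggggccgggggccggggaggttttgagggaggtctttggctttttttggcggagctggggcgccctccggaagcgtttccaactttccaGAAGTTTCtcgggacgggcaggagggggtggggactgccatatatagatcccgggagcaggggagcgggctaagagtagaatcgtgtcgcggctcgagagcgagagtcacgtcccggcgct

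The PLAU promoter holds 3 GC boxes, with the letters GGGCGG, whose first bases lie at −66, −51 and −40 from the start site. GC boxes are common, with a match in 44.9% of the 34796 promoters of this length. The other PLAU promoter, upstream, has a single CCAAT box at −182. The AP-1 motif was searched as TGANTCA. PLAUR has a match at −186 and SERPINB2 another at −102. SERPINB2 also has the TATA letters, TATAAA, at −30. AP-1 letters occur in 7.73% of all promoters and TATA letters in 11.6%. The printed SERPINE2 promoter carries CCAAT letters at 7 positions from −250 to −27 within a repeated stretch, and a GC box at −50. CCAAT letters occur in 34.6% of promoters. The other SERPINE2 promoter has GC boxes at −230 and −183 and no other match. The printed SERPINH1 promoter contains a match at −71 to the core of a heat shock element, searched as GAANNTTC, a motif present in 6.79% of promoters. The other SERPINH1 promoter has a GC box at −148 and CCAAT letters at −27. The cyclic AMP response element was searched as TGACGTCA (present in 1.84% of promoters). The motif of NF-kB was searched as GGANTTTCC (1.65% of promoters). Neither matched in any of the 8 windows, which tells only that these letters are absent from these windows. A match is a description of letters and not a measured binding site.

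Library totals ran from 20597736 to 28245693 counts, and mitochondrial genes held 2.36 to 4.23% of them, highest with UK5099 (3.81 to 4.23%). Levels are given in CPM, which divides a gene's count by the TMM-scaled library total in units of 10⁶ counts, as mean ± SD of 3 libraries. To be called, a gene needed an absolute log2 fold change over 0.5 and an adjusted p (Benjamini-Hochberg) under 0.05 in edgeR's quasi-likelihood test, fitted on all 12 libraries and 16251 genes. All 7 genes passed the filter on low counts. All 10 fibroblast markers examined, such as COL1A1, PDGFRA and VIM, were above 1 CPM in every group. Their summed level was lowest with UK5099, at 10908 to 11400 CPM, beside 18265 to 20053 CPM with CTPI2, 20693 to 21279 CPM in Sen(IR) and 21364 to 25402 CPM in Prol. The sum weighs the collagen genes heavily: from Sen(IR) to UK5099, mean COL1A1 went from 4714 to 1601 CPM, COL1A2 from 7321 to 3519 and COL3A1 from 2752 to 819. PDGFRA, THY1 and FAP were also called lower. DCN (log2 fold change −0.00), LUM (0.05), PDGFRB (0.05) and VIM (−0.14) were not called. Epithelial, endothelial and leukocyte markers, 21 genes in all, summed to at most 1.45, 6.35 and 7.02 CPM per list in any library. Between 1 and 4 of the 7 epithelial markers had no count in a group. CD68 was called higher, and the endothelial KDR lower, in Sen(IR) than in Prol, and likewise with CTPI2 against Prol. Where a marker passed the filter only through the groups in which it was higher, counts alone are given. CD14 had 4 to 6 counts per Prol library and 59 to 77 in Sen(IR). KDR had 6 to 8 per UK5099 library, 14 to 27 in Sen(IR) and 16 to 32 with CTPI2. The endothelial VWF had 4 to 12 per Prol library and 17 to 27 with CTPI2. In the UK5099 libraries CD14 was called lower than with CTPI2 (log2 fold change −0.74), and the epithelial EPCAM higher than in Prol (0.86). The part of these markers in the results was not tested. In RNA from a whole culture, fewer cells that express a gene and less RNA per cell cannot be told apart.

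Among the activators, PLAU (ENSG00000122861, urokinase) was about as high in proliferating as in senescent cells and fell to a small part of that level with UK5099. Its level was 1507, 1506 and 1634 CPM in the 3 Prol libraries and 1665, 1594 and 1619 CPM in Sen(IR). With CTPI2 it was 1457, 1414 and 1368 CPM. With UK5099 it was 129, 129 and 104 CPM. The UK5099 libraries lay far below all others, those of Prol and Sen(IR) overlapped, and the CTPI2 libraries lay just below both. The difference between Sen(IR) and Prol was a log2 fold change of 0.07 (95% interval −0.06 to 0.20, edgeR adjusted p 0.329) and was not called. Against Sen(IR), PLAU was 13.5-fold lower when UK5099 was present. The log2 fold change of −3.76 (SE 0.0706, edgeR adjusted p 5.76e-21) ranked 120 of 16251 genes by size. PLAU also stood 12.9-fold below Prol (log2 fold change −3.69, edgeR adjusted p 1.57e-21).

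PLAU lies at chromosome 10, 73909177 to 73917496 on the plus strand of GRCh38 (GENCODE v44), and 31.0% of its exon bases are shared with C10orf55. The methods do not settle whether reads were counted by strand, so reads of the 2 genes might be mixed where they overlap. C10orf55 itself had 72 to 128 counts per library in Prol, Sen(IR) and CTPI2 and 14 or 15 counts with UK5099, against 2676 to 3468 counts for PLAU in the same UK5099 libraries.

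PLAT (ENSG00000104368, tissue plasminogen activator) behaved otherwise: it was the member that rose most with senescence and was lowered only in part by UK5099. It was at 374, 450 and 407 CPM in Prol and at 2013, 2003 and 1933 CPM in Sen(IR). The CTPI2 libraries held 1742, 1813 and 1546 CPM, and the UK5099 libraries 1228, 1099 and 931 CPM. The 4 groups did not overlap, in the order Sen(IR), CTPI2, UK5099 and Prol. PLAT rose 4.83-fold in Sen(IR) against Prol (log2 fold change 2.27, SE 0.0827, adjusted p by edgeR 1.75e-16). Under UK5099 its level was 1.83-fold below that of Sen(IR) (−0.87 on the log2 scale, SE 0.0793, edgeR adjusted p 6.89e-09). With UK5099 it remained 2.65-fold above Prol (log2 fold change 1.40, edgeR adjusted p 4.37e-13), the only member called higher in that comparison. The gene lies at chromosome 8, 42174718 to 42207709, minus strand.

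PLAUR (ENSG00000011422, the urokinase receptor, chromosome 19, 43646095 to 43670547, minus strand) fell with senescence and again with UK5099. Its levels were 115, 87.9 and 119 CPM in Prol and 60.3, 58.8 and 58.9 CPM in Sen(IR). The CTPI2 libraries held 52.0, 53.2 and 53.5 CPM and the UK5099 libraries 19.5, 18.4 and 18.0 CPM. No library of any group overlapped another group. Between Prol and Sen(IR) the log2 fold change was −0.86 (SE 0.0800, edgeR adjusted p 2.49e-09). UK5099 took it 3.18-fold below Sen(IR), by −1.67 on the log2 scale (SE 0.0888, edgeR adjusted p 7.36e-13). Against Prol the UK5099 libraries were 5.76-fold lower. Per length, over all annotated exons (RPKM, n = 3), PLAU exceeded its receptor 22.1 ± 3.30-fold in Prol, 41.4 ± 0.403-fold in Sen(IR), 40.4 ± 1.83-fold with CTPI2 and 9.73 ± 0.944-fold with UK5099. With the longest annotated transcript as length the same ratios were lower, at 8.86 ± 1.32, 16.6 ± 0.162, 16.2 ± 0.735 and 3.90 ± 0.378.

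**Figure D1:**
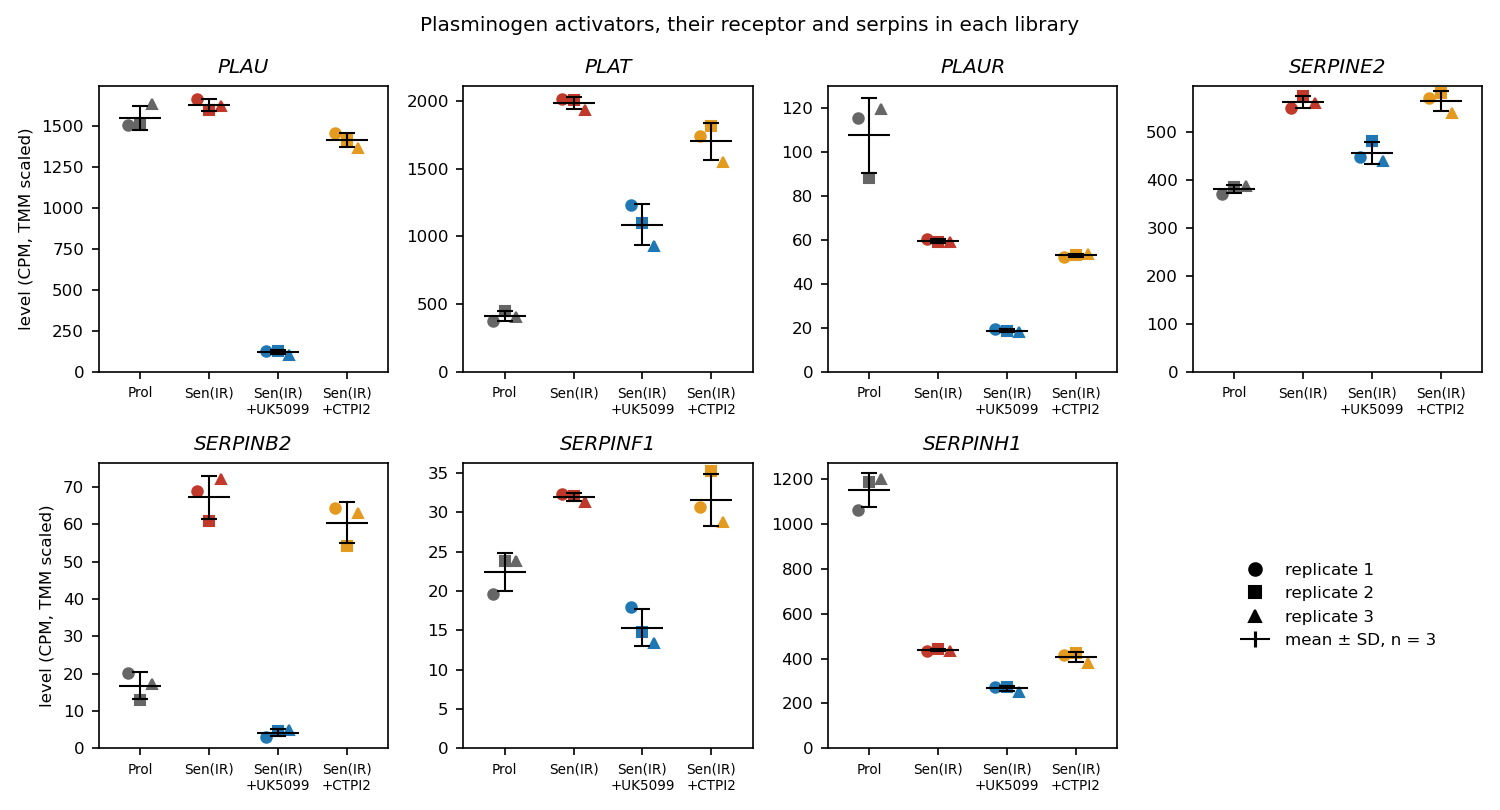
Level (CPM after TMM scaling, linear axes from 0) of the 7 genes in each of the 12 libraries, with symbols for replicates 1 to 3 and bars for the mean ± SD (n = 3). PLAU, PLAUR and SERPINB2 sit near the floor of their panels with UK5099 (104 to 129, 18.0 to 19.5 and 3.02 to 4.92 CPM), while PLAT with UK5099 (931 to 1228 CPM) stays above Prol.

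Of the inhibitors, SERPINB2 (ENSG00000197632, PAI-2, chromosome 18, 63871692 to 63903888, plus strand) had the largest fall with UK5099 of the 7 genes. It was at 20.05, 12.9 and 17.3 CPM in Prol and 68.9, 60.8 and 72.1 CPM in Sen(IR). The CTPI2 libraries held 64.3, 54.1 and 63.1 CPM and the UK5099 libraries 3.02, 4.67 and 4.92 CPM. Sen(IR) and CTPI2 libraries overlapped, both lay above Prol, and UK5099 lay below everything else. SERPINB2 rose 4.01-fold in Sen(IR) (log2 fold change 2.00, SE 0.121, edgeR adjusted p 1.36e-12). UK5099 lowered it 15.9-fold against Sen(IR) (log2 fold change −3.99, SE 0.144, edgeR adjusted p 7.49e-16), rank 97 of 16251. That was 3.96-fold below Prol (edgeR adjusted p 1.27e-10). These levels rest on 73 to 127 counts per UK5099 library and 1283 to 1548 counts per Sen(IR) library. In the annotation 20% of its exon bases are shared with ENSG00000289724, which was not analysed here.

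SERPINE2 (ENSG00000135919, protease nexin-1, an inhibitor of thrombin and urokinase, chromosome 2, 223975045 to 224039318, minus strand) was far steadier. Prol libraries held 371, 385 and 389 CPM, Sen(IR) 550, 575 and 561 CPM, CTPI2 571, 582 and 541 CPM, and UK5099 449, 483 and 440 CPM. The UK5099 libraries lay between Prol and Sen(IR) without overlap, and Sen(IR) and CTPI2 overlapped. It was called higher in Sen(IR) than in Prol (log2 fold change 0.56, SE 0.0490, edgeR adjusted p 9.15e-10). With UK5099 its log2 fold change of −0.30 against Sen(IR) (95% interval −0.40 to −0.20, edgeR adjusted p 2.91e-05) passed the p limit and not the limit on fold change, so it was not called.

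The non-inhibitory SERPINF1 (ENSG00000132386, PEDF, chromosome 17, 1762029 to 1777565, plus strand) was at 19.7, 23.8 and 23.8 CPM in Prol and 32.3, 32.1 and 31.3 CPM in Sen(IR). The CTPI2 libraries held 30.6, 35.2 and 28.7 CPM and the UK5099 libraries 17.9, 14.7 and 13.4 CPM. Sen(IR) and CTPI2 overlapped, and UK5099 was lowest. UK5099 lowered it 2.08-fold relative to Sen(IR) (−1.06 on the log2 scale, SE 0.101, edgeR adjusted p 1.42e-08), which left it 1.46-fold below Prol (−0.55, edgeR adjusted p 4.99e-05). That last call was lost with upper-quartile scaling (−0.41) and without UK5099 replicate 3 (−0.46). Its higher level in Sen(IR) than in Prol sat at the limit (log2 fold change 0.51, SE 0.0977, edgeR adjusted p 8.70e-05). The call was lost at 0.42 without Prol replicate 1, at 0.50 (just under the limit) without Sen(IR) replicate 1, and at 0.49 when only these 2 groups were fitted.

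SERPINH1 (ENSG00000149257, HSP47, which binds procollagen as it folds, chromosome 11, 75562056 to 75572783, plus strand) fell with senescence and further with UK5099. It was at 1064, 1190 and 1200 CPM in Prol and 434, 442 and 434 CPM in Sen(IR). The CTPI2 libraries held 416, 424 and 381 CPM and the UK5099 libraries 274, 276 and 253 CPM. No group overlapped another, although Sen(IR) and CTPI2 were close. Sen(IR) differed from Prol by −1.40 on the log2 scale (SE 0.0557, edgeR adjusted p 8.46e-16). UK5099 took a further −0.71 from the Sen(IR) level (SE 0.0555, edgeR adjusted p 5.88e-10). The UK5099 libraries thus stood 4.30-fold under Prol (edgeR adjusted p 6.50e-19).

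Counted over the 7 genes, senescence moved them in both directions. Against Prol, 4 of 7 were called higher in Sen(IR) (PLAT, SERPINB2, SERPINE2 and SERPINF1) and 2 of 7 lower (PLAUR and SERPINH1), where 24.8% and 22.4% of all genes tested were called higher and lower. Libraries did not overlap for 6 of 7 genes, against 70.9% of all genes. When the log2 fold change had to exceed 1 in size, 3 genes were called, PLAT and SERPINB2 higher and SERPINH1 lower, where 24.8% of all genes were called under that limit. With no limit on fold change 6 of 7 passed, against 68.7% of all genes. The median log2 fold change of the 7 was 0.51, beside 0.01 over all genes.

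UK5099, by contrast, moved the set in a single direction. Against Sen(IR), 6 of 7 were called lower and 0 higher, where 12.1% of all genes were called lower and 8.76% higher. SERPINE2 was the exception. When the log2 fold change had to exceed 1 in size, 4 of 7 were called (PLAU, PLAUR, SERPINB2 and SERPINF1), against 9.3% of all genes. With no limit on fold change 7 of 7 passed, against 45.4%. Libraries did not overlap for 7 of 7 genes, against 56.6% of all genes. The median log2 fold change was −1.06, beside 0.01 over all genes. The 6 called genes fell by 1.63-fold (SERPINH1) to 15.9-fold (SERPINB2). The summed fibroblast markers were lower in the same libraries (6 of 10 called lower, 0 higher), and their part in these differences was not tested. The 7 genes held 0.471 ± 0.00607% of all counts in Sen(IR), 0.424 ± 0.0220% with CTPI2, 0.349 ± 0.0134% in Prol and 0.207 ± 0.0189% with UK5099 (n = 3).

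CTPI2 left the same genes close to their senescent level. Against Sen(IR), edgeR called 0 of 7, and so did DESeq2, where 0.0185% of all genes were called higher and 0.148% lower. At an unadjusted p under 0.05, without the limit on fold change, edgeR had 2 of 7, against 7.27% of all genes: PLAU with a log2 fold change of −0.20 (95% interval −0.33 to −0.07, edgeR adjusted p 0.274) and PLAT with −0.22 (−0.38 to −0.06, edgeR adjusted p 0.428). These are decreases of 13.1% and 14.2%. Over the alternatives, by edgeR or DESeq2, the adjusted p ran from 0.00471 to 0.763 for PLAU and from 0.00103 to 0.859 for PLAT. At the low end of these ranges the fold limit alone kept both uncalled. Their log2 fold changes over the alternatives were no further from 0 than −0.23 and −0.27. PLAUR, SERPINB2 and SERPINH1 had log2 fold changes of −0.16, −0.15 and −0.10, and those of SERPINE2 (0.01, interval −0.09 to 0.11) and SERPINF1 (−0.02, interval −0.21 to 0.18) changed sign under some alternatives. No interval of the 7 reached −0.5 or 0.5 on the log2 scale. Libraries did not overlap for 4 of 7 genes, PLAU, PLAT, PLAUR and SERPINH1, all lower with CTPI2, against 15.1% of all genes.

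**Figure D2:**
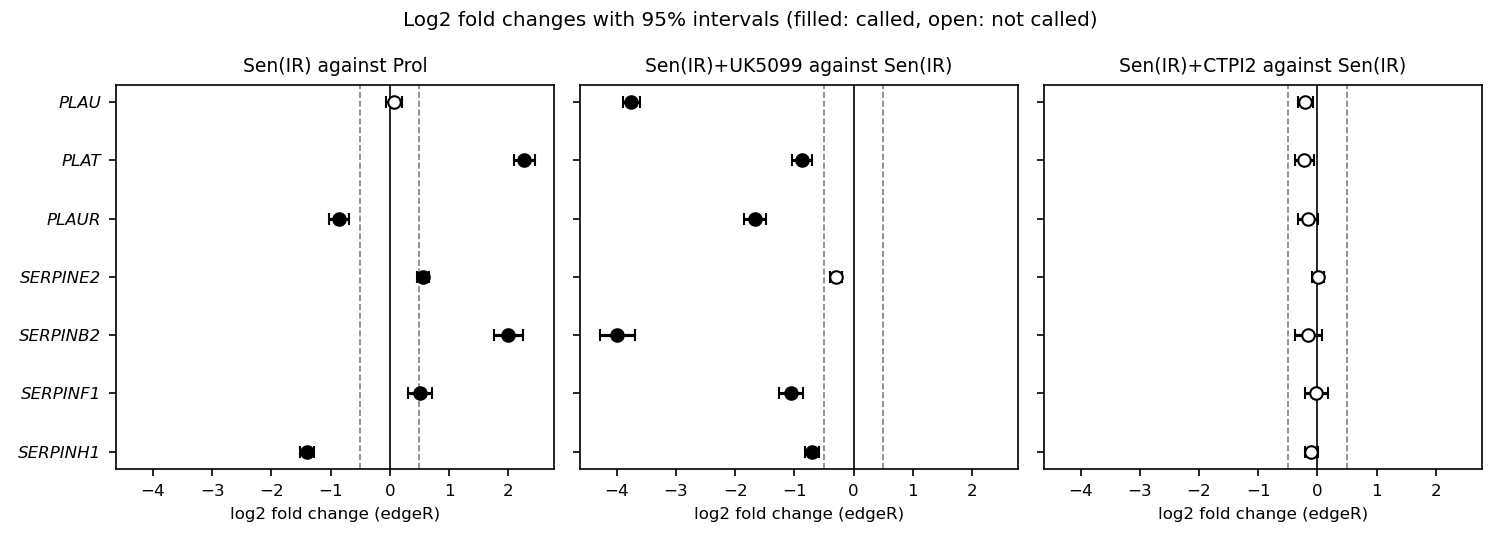
Log2 fold change (edgeR) of the 7 genes with its 95% interval in 3 comparisons, filled where the gene was called and open where it was not, with dashed lines at the limits of −0.5 and 0.5. All 7 points lie left of 0 for UK5099 against Sen(IR), from −3.99 for SERPINB2 to −0.30 for SERPINE2, and all 7 lie between the dashed lines for CTPI2.

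The libraries with UK5099 and with CTPI2 were also compared with each other. The inhibitors block different carriers and the CTPI2 dose is not given, so this compares the libraries and not the compounds at matched doses. Against CTPI2, the UK5099 libraries were called lower for 6 of 7 genes and higher for 0, where 11.7% and 8.2% of all genes were called lower and higher. PLAU was 11.7-fold lower (log2 fold change −3.55, SE 0.0700, edgeR adjusted p 1.56e-20). SERPINB2 was 14.3-fold lower (log2 fold change −3.84, SE 0.144, edgeR adjusted p 1.88e-15). SERPINE2 again missed the fold limit at −0.31. This comparison shares its UK5099 libraries with the one against Sen(IR).

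Set against proliferating cells, the irradiated cells with either inhibitor differed in different members. With UK5099, 1 gene was called higher than Prol (PLAT) and 5 lower (PLAU, PLAUR, SERPINB2, SERPINF1 and SERPINH1), where 26.9% and 26.2% of all genes were called higher and lower. The call of SERPINF1 is the one lost under the alternatives given with its levels. The log2 fold change of SERPINE2 was 0.26 and was not called. With CTPI2, 3 genes were called higher (PLAT, SERPINB2 and SERPINE2) and 2 lower (PLAUR and SERPINH1), where 24.8% and 21.9% of all genes were called higher and lower. SERPINF1 had 0.49 and PLAU −0.13 in that comparison, and neither was called. SERPINF1 lay so near the limit that it was called with upper-quartile scaling (0.60) and without Prol replicate 2 (0.54), Prol replicate 3 (0.54), CTPI2 replicate 1 (0.51) or CTPI2 replicate 3 (0.55). These comparisons share the Prol libraries with that of Sen(IR) against Prol.

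The balance between the activators differed among the groups. Levels per length (RPKM, reads per kilobase of the exons annotated for the gene) allow genes to be compared. PLAU stood at 511, 511 and 554 RPKM in Prol and PLAT at 48.1, 57.9 and 52.4 RPKM. In Sen(IR) PLAU was at 565, 540 and 549 RPKM and PLAT at 259, 258 and 249 RPKM. With UK5099 the order turned, with PLAU at 43.6, 43.6 and 35.2 RPKM and PLAT at 158, 141 and 120 RPKM. The ratio of PLAU to PLAT was thus 10.01 ± 1.03 in Prol, 2.16 ± 0.0575 in Sen(IR), 2.197 ± 0.138 with CTPI2 and 0.293 ± 0.0163 with UK5099 (n = 3). The ranges of Prol and UK5099 overlapped no other group, whereas Sen(IR) and CTPI2 overlapped. Dividing by the longest annotated transcript in place of all annotated exons lowered every ratio, to 4.95 ± 0.509, 1.07 ± 0.0284, 1.09 ± 0.0683 and 0.145 ± 0.00804 in the same order of groups, so that the activators were nearly level in Sen(IR) and CTPI2. The order of the groups did not change.

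Summed per length, PLAU and PLAT together had 578 ± 25.1 RPKM in Prol, 807 ± 14.8 in Sen(IR), 698 ± 30.6 with CTPI2 and 181 ± 23.7 with UK5099 (n = 3). With the longest annotated transcript as length the sums were higher, at 701 ± 29.1, 1185 ± 21.0, 1023 ± 53.4 and 359 ± 48.1 RPKM in the same order, so that the UK5099 sum lay less far below Prol. The sum and the ratio compare transcripts and say nothing of the proteins or their activity.

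**Figure D3:**
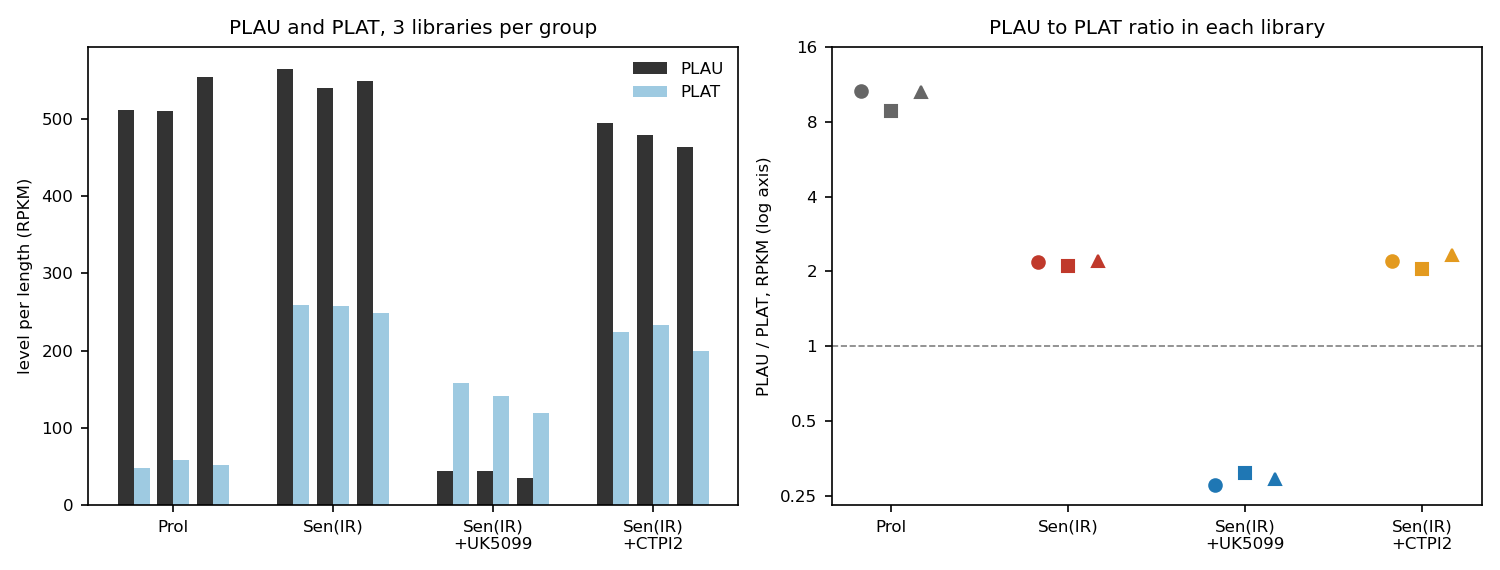
Left, PLAU and PLAT per length (RPKM, linear axis from 0) in each of the 12 libraries; right, their ratio in each library on a log axis, with circles, squares and triangles for replicates 1 to 3 and a dashed line at 1. The ratio is 8.82 to 10.6 in Prol, 2.06 to 2.33 in Sen(IR) and CTPI2 libraries, and 0.276 to 0.308 with UK5099, where PLAT exceeds PLAU in all 3 libraries.

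Around the 7 genes, 22 partners of the plasminogen system were examined (plasminogen and its binding sites, clearance receptors, integrins and matrix partners, and proteases and growth factors it activates), of which 17 passed the filter. In Sen(IR) against Prol, 8 of 17 were called higher and 6 lower, beside 24.8% and 22.4% of all genes, with a median log2 fold change of 0.22. Those higher included LRP1, the endocytic receptor that clears activator and inhibitor complexes (log2 fold change 1.47, edgeR adjusted p 8.52e-11), and IGF2R, which also binds plasminogen and PLAUR (1.49, 4.46e-14). LRPAP1, the chaperone of LRP1, rose too (1.28, 5.37e-16). THBS1 (thrombospondin 1) fell the most (−1.41, 6.81e-17). The others called lower were the plasminogen-binding PLGRKT, S100A10 and ENO1 and the integrin chains ITGB3 and ITGA5.

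With UK5099 against Sen(IR), 5 of the 17 partners were called lower and 1 higher, beside 12.1% and 8.76% of all genes, with a median log2 fold change of −0.14. MMP3 (stromelysin 1), whose proenzyme plasmin can activate, fell from 167 ± 2.74 to 38.2 ± 0.331 CPM (log2 fold change −2.13, edgeR adjusted p 1.33e-14). HGF, a growth factor whose precursor urokinase can cleave, fell from 859 ± 19.2 to 257 ± 8.28 CPM (−1.74, 5.41e-14). ITGA5, a chain of the fibronectin receptor, fell by 0.93 and the plasminogen-binding enolase ENO1 by 0.78. VTN, the matrix protein vitronectin, was called lower too. The gene called higher was THBS1 (0.53, edgeR adjusted p 6.13e-09). LRP1 was not called (517 ± 50.03 CPM in Sen(IR), 470 ± 76.2 CPM under UK5099).

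Of 30 other serpins examined, 8 passed the filter. SERPINB10 passed only through the groups in which it had more than a few counts (8 to 11 per library in Sen(IR) and 9 to 15 with CTPI2, against 0 to 2 in Prol and 0 or 1 with UK5099), so it is left out of the counts and medians that follow for Sen(IR) against Prol and for UK5099, and no fold change is given. In Sen(IR) against Prol, 1 of the other 7 was called higher and 1 lower, beside 24.8% and 22.4% of all genes, so these serpins were not called more often than genes at large. Their median log2 fold change was −0.16. SERPINI1 (neuroserpin, an inhibitor of tissue plasminogen activator) rose from 0.947 ± 0.310 to 17.5 ± 1.09 CPM (log2 fold change 4.18, edgeR adjusted p 2.68e-16). UK5099 left it at 18.2 ± 1.43 CPM, and the difference from Sen(IR) was 0.05 on the log2 scale (95% interval −0.16 to 0.26). SERPINB9, the granzyme B inhibitor, fell by 1.30 (edgeR adjusted p 1.18e-11).

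With UK5099 against Sen(IR), 2 of these 7 serpins were called lower and 0 higher, beside 12.1% and 8.76% of all genes, with a median log2 fold change of −0.04. They were SERPINB7 (log2 fold change −1.86, edgeR adjusted p 2.42e-06) and SERPINB8 (−0.94, 2.47e-10). Both lie near SERPINB2 in the serpin cluster on chromosome 18, SERPINB8 and SERPINB7 being 66.1 and 66.3 kb away on either side, and SERPINB10 begins 4.07 kb beyond it. SERPINB7 had 38 to 50 counts with UK5099 against 133 to 148 in Sen(IR). Neither SERPINB7 (log2 fold change −0.16) nor SERPINB8 (−0.32) was called in Sen(IR) against Prol. The further serpins of the cluster, SERPINB3, SERPINB4, SERPINB5, SERPINB11, SERPINB12 and SERPINB13, had at most 10 counts in any library and were not tested.

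**Figure D4:**
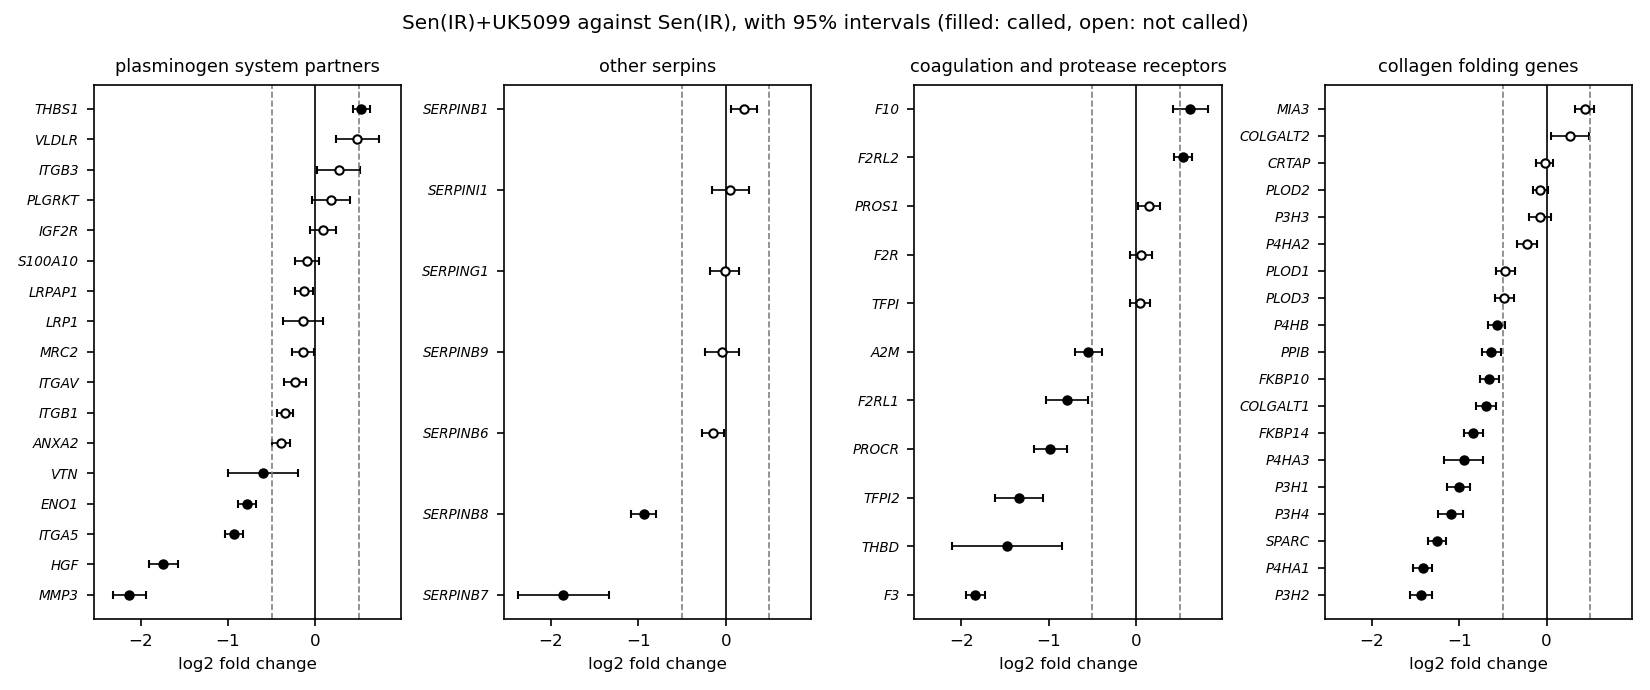
Log2 fold change with its 95% interval for the genes of 4 lists in Sen(IR)+UK5099 against Sen(IR), filled where called and open where not, with dashed lines at −0.5 and 0.5. SERPINB10 is not drawn because it had at most 1 count in each UK5099 library; MMP3 (−2.13), SERPINB7 (−1.86), F3 (−1.84) and P3H2 (−1.44) lie furthest left in their panels.

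Coagulation proteases, their inhibitors and receptors share regulators with the plasminogen system. Of 16 examined, 11 passed the filter, and 8 were called higher and 1 lower in Sen(IR) against Prol, beside 24.8% and 22.4% of all genes, with a median log2 fold change of 0.67. Examples are coagulation factor F10 (log2 fold change 1.29, edgeR adjusted p 5.07e-10), the thrombin receptors F2RL2 (1.16, 1.09e-14) and F2R (1.07, 4.80e-13), and thrombomodulin (THBD), which turns thrombin towards protein C (1.05, 0.00296). With UK5099 against Sen(IR), 6 were called lower and 2 higher, beside 12.1% and 8.76% of all genes, with a median of −0.55. Tissue factor (F3), the starter of coagulation, fell from 2354 ± 25.1 to 658 ± 47.3 CPM (log2 fold change −1.84, edgeR adjusted p 4.50e-18), and it had been at 2015 ± 34.3 CPM in Prol. TFPI2, a Kunitz inhibitor of plasmin and other proteases, fell by 1.34 (edgeR adjusted p 2.48e-08). THBD, at 10 to 16 counts per UK5099 library, fell by 1.48 and the protein C receptor PROCR by 0.98. The 2 called higher were F10 (0.62) and F2RL2 (0.54).

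SERPINH1 belongs with the enzymes and chaperones that fold collagen, of which 19 others were examined and all passed the filter. In Sen(IR) against Prol, where SERPINH1 fell, 7 of 19 were called higher and 2 lower, beside 24.8% and 22.4% of all genes, with a median log2 fold change of 0.31. The prolyl hydroxylases P3H2 (1.43, edgeR adjusted p 1.76e-15) and P4HA1 (1.22, 3.19e-15) and the lysyl hydroxylases PLOD2 (1.33, 3.38e-17) and PLOD1 (0.92, 3.13e-13) rose, while P3H1 fell by 0.69 (edgeR adjusted p 1.35e-09). With UK5099 against Sen(IR), 11 of 19 were called lower and 0 higher, beside 12.1% and 8.76% of all genes, with a median of −0.63, close to the −0.71 of SERPINH1. P3H2 fell by 1.44 (edgeR adjusted p 8.31e-15), P4HA1 by 1.42 (1.23e-15), the collagen-binding SPARC by 1.25 (9.95e-15) and P3H4 by 1.09 (1.31e-11). The collagen genes COL1A1 and COL3A1, counted among the fibroblast markers, fell by 1.56 and 1.75 in the same comparison.

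With CTPI2 against Sen(IR), edgeR called 0 genes in each of these 4 lists. At an unadjusted p under 0.05, which 7.27% of all genes passed, there were 3 of 17 partners, 1 of 8 serpins, 5 of 11 coagulation genes and 13 of 19 collagen folding genes, the last with log2 fold changes no further from 0 than −0.33 (P4HA3). SPARC (log2 fold change −0.23) and COLGALT1 (−0.24) passed the adjusted p limit at 0.0458 each (edgeR) and not the fold limit, as 0.486% of all genes passed the adjusted p.

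The 7 genes did not share a single profile over the 12 libraries. Profiles were compared as log2 CPM centred on each gene's mean, by their root-mean-square difference. The closest pairs among the 7 were SERPINE2 with SERPINF1 (0.353) and PLAUR with SERPINH1 (0.410), whereas PLAU and PLAT were the furthest apart (1.81). PLAU and SERPINB2, the members that fell most with UK5099, differed by 0.862, having parted in Prol.

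Among 12141 genes with a mean log2 CPM above 1, the profile nearest to PLAU was that of the metallothionein gene MT2A (0.181), followed by the bradykinin receptor gene BDKRB1 (0.239) and LRRC17 (0.260). PLAT was nearest to ACSL4 (0.146), SQOR (0.165) and NDN (0.169), and PLAUR to NOV (0.0811), GBP1 (0.137) and RASGRP3 (0.169). SERPINB2 was nearest to POU2F2 (0.247), TNFAIP3 (0.271) and BIRC3 (0.288). SERPINE2 was nearest to KDELR1 (0.0441), RPN2 (0.0517) and NR2F1 (0.0524). SERPINF1 was nearest to TGFBI (0.0975), COL6A1 (0.105) and ADAMTS1 (0.110). SERPINH1 was nearest to RCC2 (0.0817), ADAMTS2 (0.0846) and GGH (0.0905). These likenesses describe 12 libraries in 4 groups and say nothing of shared control.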

How the data were processed

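RNA of 12 MRC5 libraries, 3 per group, was sequenced as paired ends of 150 bases. Per the methods and the submitters' processing notes, the authors used Trimmomatic 0.36 for trimming, STAR 2.5.2b for alignment to GRCh38 and featureCounts (Subread 1.5.2) to count uniquely mapped reads in exons by gene. The deposited values are these raw counts, and all columns were mapped to samples by their titles.

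Counts were fitted in R 4.3.3 with edgeR 4.0.16 (filterByExpr, TMM, glmQLFit and glmQLFTest) on all 12 libraries with no replicate term, and p-values were adjusted over the 16251 genes tested. Standard errors were derived from the F statistic. RPKM used all exon bases annotated in GENCODE v44. The table has 57500 genes, of which 56410 have an identifier there. The coefficient of variation beyond counting noise, which edgeR estimated as 1 value over all genes and groups, was 6.12%. Groups differed in spread. Between 2 libraries of a group, the mean squared difference per gene, relative to counting noise, was 8.07 to 13.6 in Prol and 2.28 to 3.38 in Sen(IR). It was 4.59 to 5.17 with UK5099 and 2.82 to 8.73 with CTPI2. The fit does not allow for a different spread in each group. The floor was taken as 3 counts, which correspond to 0.112 to 0.147 CPM. On simulated data with 200 changed genes among 15855, modelled on UK5099 against Sen(IR), edgeR recovered 100 of 100 at a log2 change of 1 and 100 of 100 at 2, with 8 false calls. The changed genes were drawn from well-counted genes only, and every group was given the same spread. The simulation therefore does not cover genes with few counts or groups that differ in spread.

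The members, gene lists and tests were chosen with earlier results of these data known. All 7 members were named in every comparison, and from each list the called genes, with values for the 4 of largest change and for a few others named after their values were seen. Alternatives were upper-quartile and RLE scaling, DESeq2 1.42.0, testing without a filter, 2 groups only, a replicate block, an unadjusted p, a fold limit of 1 or none, each library left out in turn, and the longest transcript as length. Promoters were taken from RefSeq (GRCh38.p14); that of PLAT is not reported here, nor is 1 gene of the lists, and SERPINF1 had no entry in the table used.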

Additional observations from a re-analysis of the deposited data

How the results depend on the processing

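Over the 42 log2 fold changes of the 7 genes (6 comparisons) and their alternatives, 486 values kept direction and side of the threshold, 5 gained and 5 lost a call, all of them SERPINF1 against Prol, and 8 changed sign. The sign changes were SERPINE2 with CTPI2 against Sen(IR), at −0.000573 with DESeq2, −0.000597 with RLE scaling, −0.00224 with upper-quartile scaling and −0.0155 to 0.0373 as each library was left out, and SERPINF1 in the same comparison, at −0.103 to 0.0474 as each library was left out. A fold limit of 1 lowered the members called in Sen(IR) against Prol to 3, plasminogen partners to 6, coagulation genes to 4 and collagen folding genes to 3. Of all genes, 24.8% were called there under that limit. In UK5099 against Sen(IR) a limit of 1 left 4 members, 2 partners, 3 coagulation genes and 5 collagen folding genes, beside 9.3% of all genes. Of the other serpins, with SERPINB10 not counted, it left SERPINB7 alone. Without a fold limit the calls in Sen(IR) against Prol were 5 other serpins (SERPINB10 not counted) and 18 collagen folding genes. They were 11 partners in UK5099 against Sen(IR), and 2 collagen folding genes with CTPI2. These moves follow from the limit itself, without which 68.7%, 45.4% and 0.486% of all genes were called in the 3 comparisons. Leaving out SERPINB10, a choice made after seeing the data because all its Prol and UK5099 libraries were at or under 3 counts, lowered the other serpins called from 3 to 2 in Sen(IR) against Prol and in UK5099 against Sen(IR). Replicate numbers showed no pairing of the libraries. Correlations of same-numbered deviations ran from −0.0511 to 0.0423, beside −0.0622 to 0.102 for different numbers. With 3 libraries per group, these values cannot tell whether same-numbered libraries came from 1 experiment. The replicate block left the members called at 6, 6 and 0 of 7 in Sen(IR) against Prol, UK5099 against Sen(IR) and CTPI2 against Sen(IR). Upper-quartile scaling moved the median of all genes in Sen(IR) against Prol to 0.13, from 0.01. Between genes, levels per length depend on the transcript length chosen, which moved 27 of 28 group means by more than their SD.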
